A study of Mus musculus with 15 samples.

Results

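The genes described here are 38 mouse genes of smooth muscle contraction, the actin cytoskeleton and the SRF and YAP transcription axes, chosen from a list of symbols and measured on every array. All 38 were found among the 18193 genes with a probe set of their own, through 93 probe sets, and each gene was read from its brightest probe set (14 genes had 1 probe set and 24 had several). Genes of the Ccn family were not included. The arrays came from NIH3T3 cells, a continuous fibroblast line from mouse embryos, that had been infected with the retroviral vector pBabe-puro carrying Runx family genes. By its title, the study asked about genes under Runx control that act in adhesion and survival of cells. The 15 arrays are numbered as biological replicates within groups, but the labels do not name separate infections. The p-values therefore cover the spread between arrays of a group, which may be technical.

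Of the 8 groups, those with constitutive mouse Runx1, mouse Runx2 or mouse Runx3 had 2 arrays each, and constitutive human RUNX1 had 1. Cells with RUNX1-ER, the inducible human RUNX1 construct, had 2 arrays after induction with 4-hydroxytamoxifen (4-OHT) and 2 uninduced. Empty-vector cells had 2 arrays with 4-OHT and 2 without. Every culture was grown for 7 days and received 0.2% ethanol for 24 h, with 0.1 mM 4-OHT where stated, and the labels do not say which of these the constitutive lines received. The vector arrays serve as control for all 4 constitutive lines, so the changes of those lines are not independent of each other.

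Actin filaments give a fibroblast its shape and its grip on the substrate, and myosin pulls on them where tropomyosins and calponins allow it. When actin monomers become scarce, the cofactors MRTF-A and MRTF-B enter the nucleus and switch on genes with serum response factor, SRF, which binds the CArG box. Tension on the filaments also lets YAP into the nucleus, where it works through TEAD proteins, which bind the bases GGAATG. Runx proteins bind TGTGGT or TGCGGT. Many genes that fibroblasts share with smooth muscle, such as Acta2 and Tagln, are under SRF and MRTF.

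Promoter windows of 5 members on which the results turn are printed to show which of these letters stand near their starts. They run from 250 bases before to 50 bases after an annotated transcript start, are RefSeq sequences of GRCm38.p6, read 5′ to 3′ on the strand of the gene, and carry any match in capitals. The 5 genes were picked after their values were seen, and where a gene has several windows the one with most matches to the Runx letters is shown. Tpm1 lies at chr9:67049164-67049463 (minus strand), Cnn2 at chr10:79988350-79988649 (plus), Ankrd1 at chr19:36119795-36120094 (minus), Tmsb4x at chrX:167209169-167209468 (minus) and the window of Add3, 1 of 3, at chr19:53142506-53142805 (plus).
Tpm1: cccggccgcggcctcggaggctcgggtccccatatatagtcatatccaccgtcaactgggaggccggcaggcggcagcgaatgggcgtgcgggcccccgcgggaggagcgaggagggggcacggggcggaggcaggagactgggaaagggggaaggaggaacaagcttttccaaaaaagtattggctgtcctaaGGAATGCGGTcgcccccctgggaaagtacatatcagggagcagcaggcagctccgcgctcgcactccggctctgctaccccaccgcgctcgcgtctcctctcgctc
Cnn2: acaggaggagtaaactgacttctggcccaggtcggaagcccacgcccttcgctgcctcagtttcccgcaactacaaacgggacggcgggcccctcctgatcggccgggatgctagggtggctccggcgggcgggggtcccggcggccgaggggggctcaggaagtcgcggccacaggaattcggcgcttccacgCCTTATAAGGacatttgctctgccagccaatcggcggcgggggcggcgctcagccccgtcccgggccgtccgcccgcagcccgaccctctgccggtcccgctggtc
Ankrd1: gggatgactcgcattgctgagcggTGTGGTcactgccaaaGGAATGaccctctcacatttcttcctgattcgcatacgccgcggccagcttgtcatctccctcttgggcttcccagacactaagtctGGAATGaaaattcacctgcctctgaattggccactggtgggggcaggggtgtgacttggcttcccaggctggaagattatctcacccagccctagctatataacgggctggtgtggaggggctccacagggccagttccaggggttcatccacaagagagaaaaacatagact
Tmsb4x: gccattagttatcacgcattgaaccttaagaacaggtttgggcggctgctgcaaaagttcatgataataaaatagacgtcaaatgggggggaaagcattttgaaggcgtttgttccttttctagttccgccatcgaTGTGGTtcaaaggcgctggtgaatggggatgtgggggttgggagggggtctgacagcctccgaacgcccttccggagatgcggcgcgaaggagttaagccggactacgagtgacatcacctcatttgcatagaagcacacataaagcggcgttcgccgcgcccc
Add3: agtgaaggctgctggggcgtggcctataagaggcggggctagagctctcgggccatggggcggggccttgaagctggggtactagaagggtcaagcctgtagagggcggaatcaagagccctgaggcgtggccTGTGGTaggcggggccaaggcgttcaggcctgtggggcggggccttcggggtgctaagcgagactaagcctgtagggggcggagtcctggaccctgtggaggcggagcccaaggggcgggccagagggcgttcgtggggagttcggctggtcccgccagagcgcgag

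In Tpm1 the capitals mark GGAATG, 56 bases before the start, which overlaps TGCGGT, 52 before. In Cnn2 they mark the CArG box CCTTATAAGG, 56 bases before. Ankrd1 holds TGTGGT at 226 and GGAATG at 210 and 123 bases before its start, while Tmsb4x and Add3 hold TGTGGT at 114 and 117. The other 2 windows of Add3 hold no TGTGGT or TGCGGT. Over the 34 members with a window, searched on both strands, GGAATG stood in 20 of 44 windows (45.5%), against 14.7% of all 32851 windows. The CArG box was searched without mismatch, as CC, a run of A or T, and GG. It stood in 4 of 44 windows (9.09%), in Cnn2, Myl9, Srf and Vcl, against 1.63% of all windows. Variants with a mismatch and sites outside the windows were not counted. Actg2, Tagln, Actb and Tead1 had no window. TGTGGT was in 7 of 44 (15.9%), against 16.8%, and TGCGGT in 2 of 44 (4.55%), against 6.45%. A match describes the letters only, and windows of 1 gene are not independent.

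The values were Robust Multichip Average (RMA) values in log2 units, so that equal steps are equal ratios. Array medians over all 45101 probe sets ran from 3.69 to 3.75, and replicates of a group differed with an SD over genes of between 0.162 (vector cells) and 0.220 (vector cells with 4-OHT). Of 6 Runx1 probe sets, 2 were more than 1 log2 unit higher in the Runx1 line than in vector cells, with means of 9.21 and 7.23, against 4.65 and 4.29, and the other 4 were not. None of the 6 was that much higher in the human RUNX1 line. The 2 Runx3 probe sets did not rise in the line labelled Runx3, with means of 4.21 and 3.25, against 4.45 and 3.16 in vector cells. Whether those probe sets cover the RNA made from the construct is not given in the sources used here, so the Runx3 label has no support from the array, and Runx3 cells here means the cells so labelled. Runx2 was not analysed here. Of 3 probe sets of Esr1, the mouse gene of the receptor whose part the ER fusion carries, 1 had means of 5.83 in induced RUNX1-ER cells and 6.51 without induction, against 4.06 in vector cells. All 9 fibroblast markers had medians between 8.09 and 13.2. Of 4 markers of differentiated smooth muscle, Myh11 and Myocd had medians of 3.20 and 3.82, near the array medians, and Smtn and Des had 5.87 and 5.10. Cnn1 and Lmod1, contractile members of smooth muscle, also stayed at that level, with means of 3.74 and 3.92.

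A change was called where limma's adjusted p was below 0.05 after Benjamini-Hochberg adjustment over all genes. In the Runx1 line 6 of 38 members were called (5 higher, 1 lower), where 1.7% of all genes were called (0.973% higher, 0.726% lower). The Runx2 line had 2 called members (1 higher, 1 lower), against 2.57% of all genes (0.923% higher, 1.65% lower). The Runx3 line had 13 (5 higher, 8 lower), against 9.37% of all genes (3.97% higher, 5.4% lower), and the human RUNX1 line 6 (5 higher, 1 lower), against 7.33% (2.19% higher, 5.14% lower). The human RUNX1 line is 1 array, so all its p-values take their spread from the other groups. With only its 3 arrays in the fit, limma called 0 members and 0 genes, and 8 members and 22.1% of all genes had an unadjusted p under 0.05. Induction of RUNX1-ER moved 5 members (3 higher, 2 lower) relative to uninduced cells, against 1.92% of all genes (1.01% higher, 0.912% lower). The shares of all genes include many dim genes, while all members but Cnn1 and Lmod1 had a mean above 5. Over the 8048 genes above 5, fitted alone, 439 genes and 9 members were called in Runx1 cells and 644 and 4 in Runx2 cells. There were 2080 and 14 in Runx3 cells, and 523 and 7 on induction. No enrichment of the members was tested.

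Median changes of the 38 members were 0.06 in the Runx1 line, −0.03 in the Runx2 line, 0.02 in the Runx3 line and −0.03 on induction, close to those of all genes (−0.01, −0.01, 0.00 and 0.02). In all, 20 members were called in at least 1 of 12 comparisons and 18 in none. The matching share of all genes over the 12 comparisons together was not counted, so 20 of 38 has no background here. The arrays of the compared groups did not overlap in any of the 63 calls checked, so a lack of overlap adds nothing to a call. Its share over all genes was not counted. Of 64 calls, 26 held whichever array was left out (for the human RUNX1 line, either vector array), and 39 were lost when only the arrays of the groups compared entered the fit. With any 1 of its 4 arrays left out the count fell to 1 or 2 in the Runx1 line and to between 1 and 3 on induction. The count of 2 in the Runx2 line became 1 with any of its 4 arrays left out, and that of 13 in the Runx3 line became 7 without vector replicate 1.

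**Figure D1:**
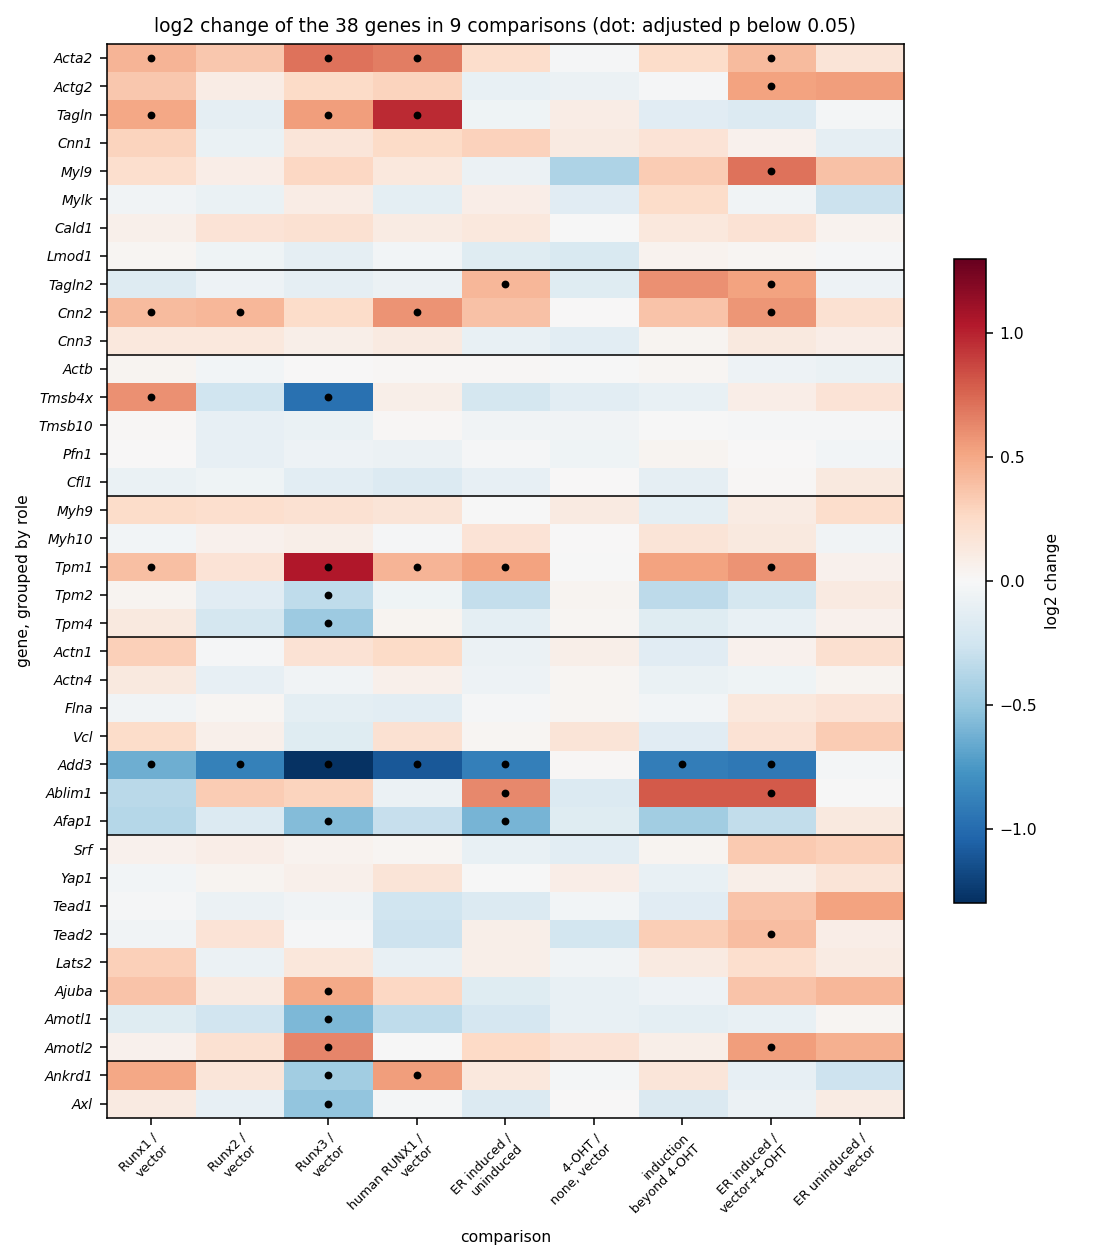
Rows are the 38 genes in 7 role groups and columns are 9 comparisons. Colour gives the log2 change of the group named first against the group named after the slash (red higher, blue lower), and a dot marks an adjusted p below 0.05. Add3 is blue in the columns of the 4 constitutive lines and of induced cells, and Tmsb4x and Ankrd1 have opposite colours in the Runx1 and Runx3 columns, where the Runx1 value of Ankrd1 was not called.

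Add3, gamma-adducin, a membrane skeleton protein that caps actin filaments and ties them to spectrin, was lower in the 4 constitutive lines and on induction. It lay at 7.44 and 7.46 in Runx1 cells, 7.20 and 7.22 in Runx2 cells, 6.80 on both Runx3 arrays and 6.98 in human RUNX1 cells, against 8.15 and 8.01 in vector cells. Induced RUNX1-ER cells had 7.28 and 7.07, against 7.96 and 8.15 in uninduced cells, and 4-OHT alone left vector cells at 8.10 and 8.09. Every array of the 4 lines and of induced cells was below every vector array and uninduced array.

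The log2 change of Add3 was −0.63 (SE 0.0981, adjusted p = 0.00375) in Runx1 cells, a 1.55-fold lower level. It was −0.87 (adjusted p = 0.000234) in Runx2 cells, −1.28 (adjusted p = 2.46e-06, 2.44-fold lower) in Runx3 cells and −1.10 (adjusted p = 0.000165) in human RUNX1 cells. On induction it was −0.88 (adjusted p = 0.000341), and the part beyond the change with 4-OHT in vector cells was −0.90 (SE 0.139, adjusted p = 0.00814). That last call was the sole one among the members for this contrast, in which 0.605% of all genes were called (0.489% higher, 0.115% lower). It was lost without vector replicate 2 (adjusted p = 0.0536), and the call in Runx1 cells without vector replicate 1 (adjusted p = 0.064). Runx3 cells were lower than Runx1 cells by −0.65 (adjusted p = 0.00116) and lower than Runx2 cells by −0.41 (adjusted p = 0.0375), and the difference from Runx2 cells was lost with any of the 4 arrays left out (adjusted p = 0.122 to 0.165).

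Add3 had 3 further probe sets. The brighter of 2 changed by −0.61, −0.77 and −1.05 in Runx1, Runx2 and Runx3 cells and by −0.64 on induction, and the dimmer by −0.75, −0.92, −1.42 and −0.47, all called. The fourth, an x_at probe set, changed by −0.15, 0.10, 0.05 and −0.07 and was called in none of them. None of the 3 was called for induction beyond 4-OHT (adjusted p = 0.154, 0.335 and 0.966), the contrast called in the brightest probe set. Between Runx3 and Runx1 cells, and between Runx3 and Runx2 cells, the third brightest was called (adjusted p = 0.00188 and 0.0266) and the second was not (adjusted p = 0.0897 and 0.399).

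**Figure D2:**
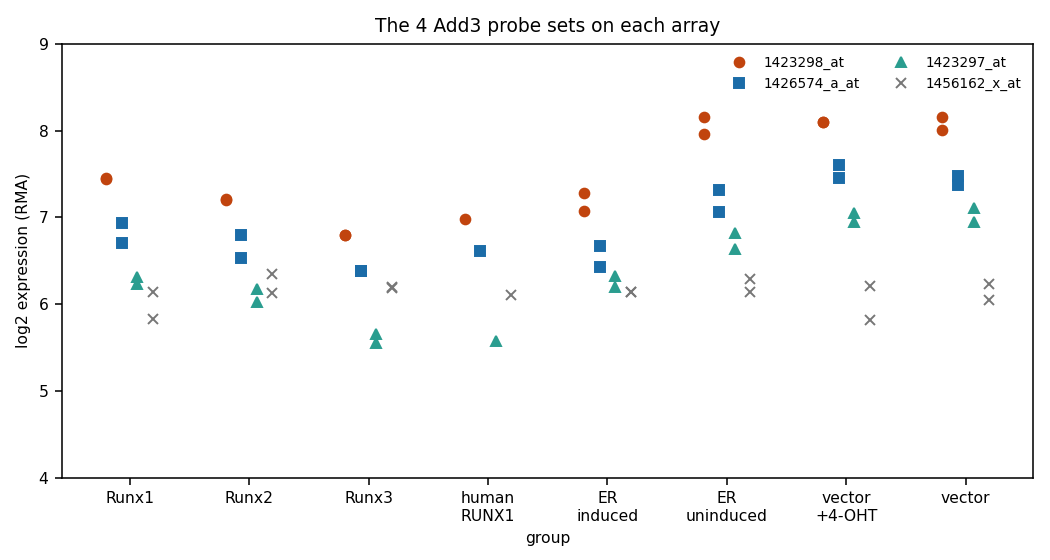
The vertical axis gives the log2 expression of the 4 Add3 probe sets on each array, and the horizontal axis the 8 groups, with 1 symbol per probe set and 1 point per array. In 3 probe sets the constitutive lines lie below the vector arrays, and the x_at probe set shows no such step.

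Tpm1, tropomyosin 1, which stabilises actin filaments and sets which myosins can use them, rose in Runx1, Runx3 and human RUNX1 cells and on induction. It read 10.43 and 10.45 in Runx1 cells, 10.25 and 10.20 in Runx2 cells, 11.07 and 11.10 in Runx3 cells and 10.49 in human RUNX1 cells, against 10.03 and 10.06 in vector cells. Induced RUNX1-ER cells had 10.61 and 10.64, against 10.16 and 10.05 in uninduced cells. Both Runx3 arrays stood above all others.

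The log2 change of Tpm1 was 1.04 (SE 0.0816, adjusted p = 3.02e-06, 2.06-fold) in Runx3 cells, and it exceeded that in Runx1 cells by 0.65 (adjusted p = 0.000296) and in Runx2 cells by 0.86 (adjusted p = 9.99e-05). In Runx1 cells it was 0.40 (adjusted p = 0.0258) and in human RUNX1 cells 0.44 (adjusted p = 0.019). The first of these calls was lost with any 1 of its 4 arrays left out (adjusted p = 0.12 to 0.195) and the second without either vector array (adjusted p = 0.057 to 0.0955). On induction it was 0.52 (adjusted p = 0.00444), lost without uninduced replicate 2 or induced replicate 2 (adjusted p up to 0.0591). A second bright probe set changed by 0.93 (adjusted p = 4.08e-05) in Runx3 cells and by 0.45 (adjusted p = 0.0377) on induction, and the 2 faint ones were not called in any comparison in which Tpm1 was.

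Tpm2 and Tpm4, which encode the beta and delta tropomyosins, went the other way in Runx3 cells. Tpm2 was 9.81 on both Runx3 arrays, against 10.12 and 10.17 in vector cells, a change of −0.33 (SE 0.0804, adjusted p = 0.0192). Tpm4 was 10.26 and 10.28 in Runx3 cells, against 10.71 and 10.78 in vector cells, a change of −0.47 (SE 0.0776, adjusted p = 0.00146). Neither gene's Runx3 arrays overlapped the vector arrays, and the Tpm2 call was lost with any 1 of the 4 arrays left out (adjusted p = 0.0773 to 0.131). Relative to Runx1 cells, Runx3 cells differed by −0.60 in Tpm4 (adjusted p = 0.000393) and by −0.36 in Tpm2 (adjusted p = 0.0149), the difference in Tpm2 lost with any 1 array left out (adjusted p = 0.0762 to 0.088). A dimmer Tpm2 probe set changed by −0.40 (adjusted p = 0.0156) in Runx3 cells, and the dimmest, with a mean of 5.18, by 0.14 (adjusted p = 0.631). The remaining Tpm2 probe set is not described here.

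Tpm4 in Runx2 cells, at 10.53 and 10.49, was below Runx1 cells, at 10.85 and 10.88, by −0.36 (adjusted p = 0.0414), a call lost with any 1 of those arrays left out (adjusted p = 0.126 to 0.223). The non-muscle myosin heavy chains Myh9 and Myh10, the motors of stress fibres, were called in no comparison, with changes between −0.12 and 0.23 for Myh9 and between −0.04 and 0.17 for Myh10. Of the 5 genes in this class, Runx3 cells had 1 higher and 2 lower, and Runx1 cells and human RUNX1 cells 1 higher each. Runx2 cells had none called. In Runx2 cells 3 of the 5 stood at an unadjusted limma p under 0.05, where 12.5% of all genes did.

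Tmsb4x, thymosin beta-4, which holds actin monomers in reserve, had opposite changes in the Runx1 and Runx3 lines. It read 9.49 and 9.60 in Runx1 cells, 8.72 and 8.66 in Runx2 cells, 7.996 and 7.957 in Runx3 cells and 9.03 in human RUNX1 cells, against 9.005 and 8.891 in vector cells. Runx1 arrays were the highest of all 15 and Runx3 arrays the lowest, with no overlap with vector cells in either case. The changes were 0.60 (SE 0.0859, adjusted p = 0.00212) in Runx1 cells and −0.97 (SE 0.0859, adjusted p = 9.08e-06) in Runx3 cells, and both held with any 1 array left out.

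The direct contrast of Tmsb4x between Runx3 and Runx1 cells was −1.57 (adjusted p = 2.99e-07), a 2.97-fold lower level in Runx3 cells. Runx2 cells were below Runx1 cells by −0.86 (adjusted p = 0.000248), and Runx3 cells below Runx2 cells by −0.71 (adjusted p = 0.00053). Induced RUNX1-ER cells, at 8.94 and 8.85, against 9.10 and 9.16 in uninduced cells, were not called, and neither was the human RUNX1 line. Whether the mouse and human constructs differ in this gene was not tested. Tmsb4x has 1 probe set, so it was read once per array.

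The other 4 genes of actin monomers were called in no comparison. Actb, beta-actin, the main actin of non-muscle cells, changed by between −0.08 and 0.05 over the 12 comparisons. Tmsb10, a second thymosin, ran between −0.12 and 0.02, Pfn1, profilin, which feeds monomers to growing ends, between −0.12 and 0.04, and Cfl1, cofilin, which severs filaments, between −0.18 and 0.13. Actb and Tmsb10 had means of 13.7 and 13.2, near the highest value on any array (14.2).

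**Figure D3:**
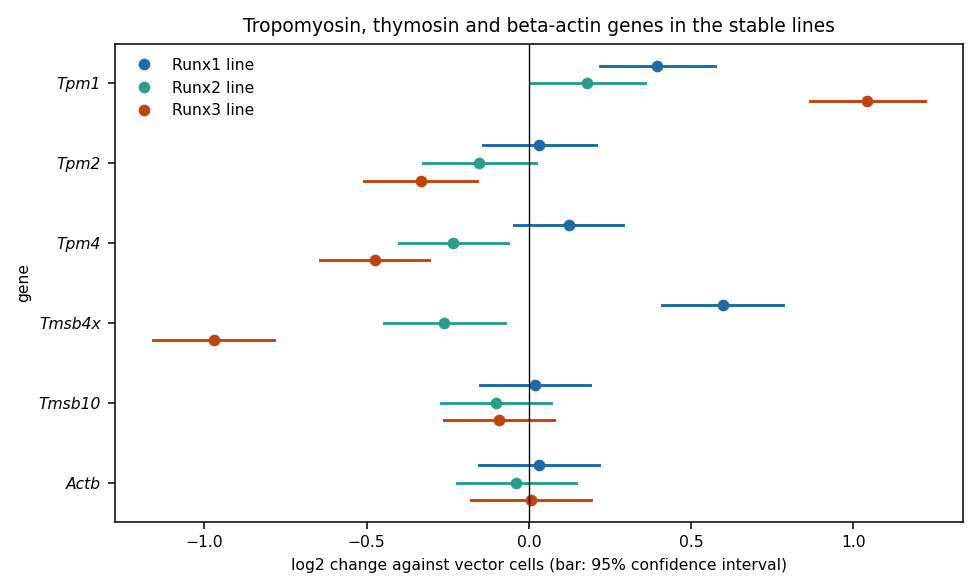
The horizontal axis gives the log2 change against vector cells in the Runx1, Runx2 and Runx3 lines (points, with 95% confidence intervals as bars), and rows are 6 genes. Tpm1 and Tpm2 or Tpm4 separate to opposite sides in Runx3 cells, Tmsb4x spans from 0.60 in Runx1 cells to −0.97 in Runx3 cells, and the Tmsb10 and Actb intervals include 0.

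Among the 8 smooth muscle contractile genes, Acta2 and Tagln rose in Runx1, Runx3 and human RUNX1 cells and the other 6 were called in none of the constitutive lines. Acta2, smooth muscle alpha-actin, lay at 11.02 and 11.12 in Runx1 cells, 10.99 and 10.97 in Runx2 cells, 11.30 and 11.35 in Runx3 cells and 11.29 in human RUNX1 cells, against 10.65 and 10.60 in vector cells. All 4 lines were above both vector arrays. The change was 0.70 (SE 0.0876, adjusted p = 0.00017, 1.63-fold) in Runx3 cells and 0.66 (adjusted p = 0.00276) in human RUNX1 cells, the first held with any 1 of its 4 arrays left out and the second without either vector array. It was 0.44 (adjusted p = 0.0191) in Runx1 cells, a call lost with any 1 of the 4 arrays left out (adjusted p = 0.0674 to 0.185). In Runx2 cells it was 0.35, not called (adjusted p = 0.0558), and Runx2 cells were not called against Runx1 cells. The Runx2 value passed in some alternative fits, such as limma with an intensity trend in its prior (adjusted p = 0.000222). It did not pass in others, such as the fit of only the groups compared.

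The Runx3 line stood above the Runx2 line by 0.35 in Acta2 (adjusted p = 0.0456), lost with any 1 array left out (adjusted p = 0.137 to 0.22). When Acta2 was read as the mean of its 3 probe sets, its changes in Runx1, Runx3 and human RUNX1 cells were 0.09, 0.24 and 0.24 and were not called. The other 2 probe sets had means of 3.33 and 3.16, near the array medians.

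Tagln, SM22-alpha, an actin-binding protein of smooth muscle and of activated fibroblasts, read 6.64 and 6.77 in Runx1 cells, 6.03 and 6.14 in Runx2 cells, 6.74 and 6.76 in Runx3 cells and 7.17 in human RUNX1 cells, against 6.11 and 6.29 in vector cells. Runx2 arrays overlapped the vector arrays and the others did not. The change was 0.50 (SE 0.112, adjusted p = 0.0398) in Runx1 cells, lost with any 1 of the 4 arrays left out (adjusted p = 0.103 to 0.348). It was 0.55 (adjusted p = 0.0069) in Runx3 cells, lost without vector replicate 1 (adjusted p = 0.0879), and 0.97 (SE 0.137, adjusted p = 0.00113) in human RUNX1 cells.

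Runx2 cells were below Runx1 cells in Tagln by −0.62 (adjusted p = 0.0139), lost without either Runx1 array or without Runx2 replicate 1 (adjusted p up to 0.148). Runx3 cells were above Runx2 cells by 0.66 (adjusted p = 0.00562), lost without Runx2 replicate 1 (adjusted p = 0.0515). Induced RUNX1-ER cells, at 6.24 and 6.00, overlapped uninduced cells, at 6.06 and 6.29. The difference between the human RUNX1 line and induced RUNX1-ER cells was not tested.

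Cnn1, Mylk, Cald1 and Lmod1 were called in no comparison. Cnn1, calponin 1, moved between −0.38 and 0.29 and Lmod1, leiomodin 1, between −0.20 and 0.04, both near the array medians. Mylk, the kinase that switches smooth muscle myosin on, ran between −0.28 and 0.23, and Cald1, caldesmon, had changes of at most 0.19. Actg2, smooth muscle gamma-actin, and Myl9, a regulatory myosin light chain, were called in 1 comparison, described with RUNX1-ER.

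Cnn2, the calponin of non-muscle cells, rose in Runx1, Runx2 and human RUNX1 cells, while its relatives Tagln2 and Cnn3 were called in no constitutive line. It had 11.28 and 11.45 in Runx1 cells, 11.41 and 11.36 in Runx2 cells, 11.17 and 11.22 in Runx3 cells and 11.54 in human RUNX1 cells, against 11.00 and 10.91 in vector cells. Every array of the 4 lines was above both vector arrays. Changes were 0.41 (SE 0.092, adjusted p = 0.0442) in Runx1 cells, 0.43 (adjusted p = 0.0233) in Runx2 cells and 0.58 (SE 0.113, adjusted p = 0.00825) in human RUNX1 cells. The calls in Runx1 and Runx2 cells were lost with any 1 array left out (adjusted p = 0.0674 to 0.356 and 0.0631 to 0.194). The single CArG box of the Cnn2 window is the one printed above.

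**Figure D4:**
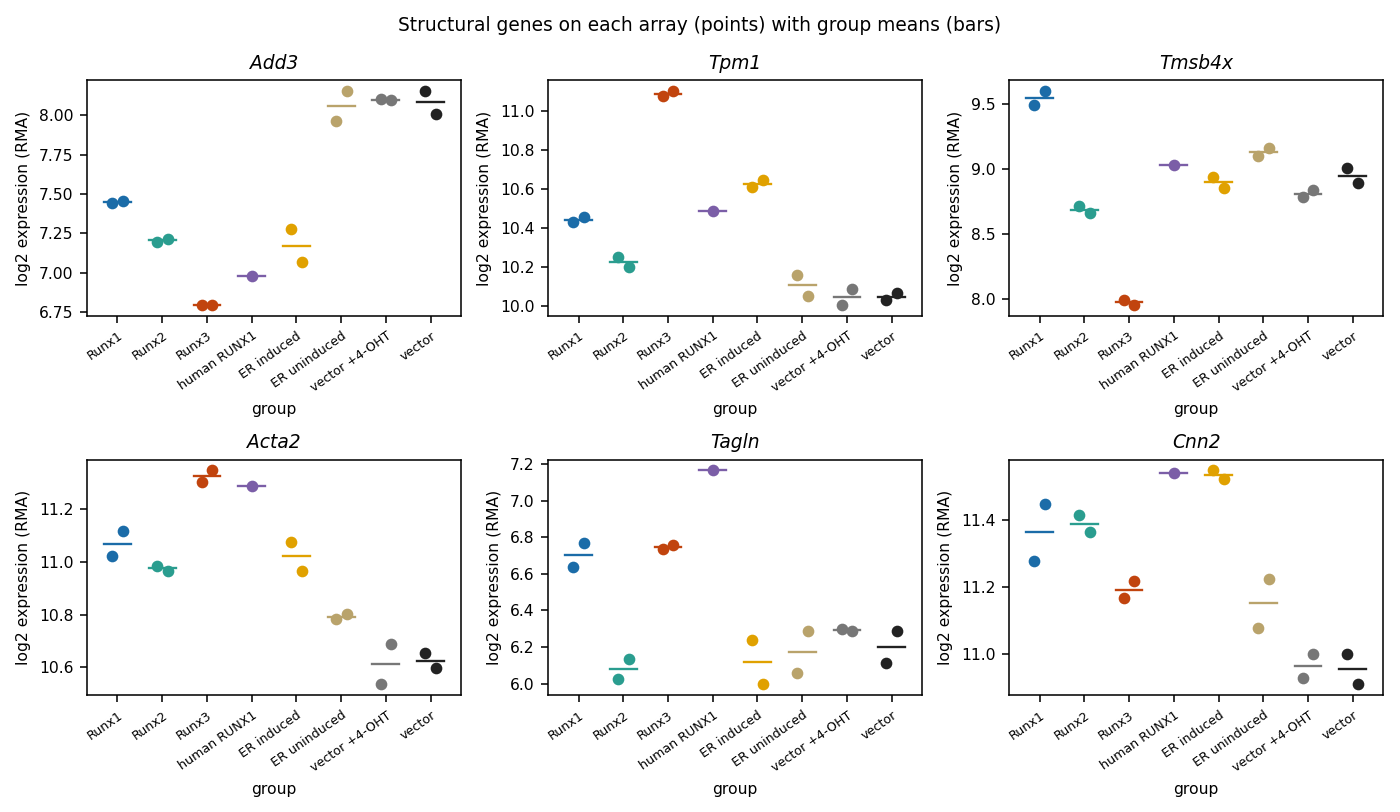
Each panel gives the log2 expression of 1 gene on every array (points) with the group mean (bar), for 8 groups on the horizontal axis and with a vertical axis that does not start at 0. Add3 is at 7.46 or below in all Runx groups except uninduced RUNX1-ER, Tmsb4x is highest in Runx1 and lowest in Runx3 cells, and Tagln in Runx2 cells overlaps the vector arrays.

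Afap1, which crosslinks actin filaments and binds Src, fell in Runx3 cells and on induction. It read 7.19 and 6.99 in Runx3 cells, against 7.75 and 7.56 in vector cells, a change of −0.56 (SE 0.139, adjusted p = 0.0214). Induced RUNX1-ER cells had 7.25 and 7.11, against 7.63 and 7.94 in uninduced cells, a change of −0.60 (adjusted p = 0.0472). Arrays of the compared groups did not overlap. The first call was lost without vector replicate 1 or Runx3 replicate 2 (adjusted p up to 0.184), and the second without uninduced replicate 2 or either induced array (adjusted p up to 0.401).

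Ablim1, an actin-binding LIM protein, was higher in Runx2 and Runx3 cells than in Runx1 cells. It had 6.42 and 6.34 in Runx1 cells, 6.86 and 7.27 in Runx2 cells and 7.05 and 6.99 in Runx3 cells, against 6.75 and 6.71 in vector cells. None of these was called against vector cells, but Runx2 cells exceeded Runx1 cells by 0.68 (SE 0.144, adjusted p = 0.0333) and Runx3 cells exceeded them by 0.64 (adjusted p = 0.0163). The first was lost without either Runx1 array or without Runx2 replicate 2 (adjusted p up to 0.216), and the second with any 1 array left out (adjusted p = 0.0716 to 0.113).

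Vcl, vinculin, which couples integrin-bound talin to actin, was lower in Runx3 cells, at 9.09 and 9.19, than in Runx1 cells, at 9.47 and 9.59. The difference was −0.39 (SE 0.1, adjusted p = 0.036), lost with any 1 array left out (adjusted p = 0.076 to 0.225). Vector cells, at 9.34 and 9.25, lay between the 2 lines, and neither line was called against them. The other crosslinkers were called in no comparison, with Actn1 and Actn4, the alpha-actinins, between −0.33 and 0.31 and between −0.23 and 0.12, and Flna, filamin A, between −0.15 and 0.17. Actn1 depended on the settings. Read as the mean of its 3 probe sets, it changed by 0.44 (limma adjusted p = 0.00801) in Runx3 cells, against 0.19 for the brightest. In Runx1 cells its change of 0.31 passed with only genes above 5 fitted (adjusted p = 0.0296) and with an intensity trend in limma's prior (adjusted p = 0.00278).

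In Runx3 cells 2 of the 8 members classed as SRF and YAP regulators, Amotl2 and Ajuba, rose and 1 fell. Both members classed as YAP targets, Ankrd1 and Axl, fell. Each member was placed in 1 class only, so regulators such as Amotl2 and Ajuba were not counted as targets. Ankrd1, a widely used readout of YAP and TEAD activity, lay at 9.06 and 9.10 in Runx1 cells, 8.68 and 8.79 in Runx2 cells, 8.24 and 8.02 in Runx3 cells and 9.12 in human RUNX1 cells, against 8.62 and 8.55 in vector cells. Runx3 arrays were below, and those of the other 3 lines above, both vector arrays.

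The change of Ankrd1 was −0.45 (SE 0.118, adjusted p = 0.0285) in Runx3 cells, lost without either vector array or without Runx3 replicate 2 (adjusted p up to 0.231). It was 0.54 (SE 0.144, adjusted p = 0.0416) in human RUNX1 cells, lost without either vector array (adjusted p = 0.116 and 0.137). In Runx1 cells it was 0.50, not called (adjusted p = 0.0577). Runx3 cells were below Runx1 cells by −0.95 (adjusted p = 0.00026), which held with any 1 array left out, and below Runx2 cells by −0.61 (adjusted p = 0.0131), lost without Runx2 replicate 2 or Runx3 replicate 2 (adjusted p up to 0.122). The second probe set changed by −0.72 (adjusted p = 0.00209) in Runx3 cells and by 0.42 (adjusted p = 0.184) in Runx1 cells.

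Axl, a receptor tyrosine kinase whose gene YAP activates, read 8.99 and 9.18 in Runx3 cells and 9.61 and 9.81 in Runx1 cells, against 9.70 and 9.48 in vector cells. Both Runx3 arrays were the lowest of all. The change in Runx3 cells was −0.51 (SE 0.109, adjusted p = 0.00922), lost without vector replicate 1 or Runx3 replicate 1 (adjusted p up to 0.117). Against Runx1 cells it was −0.63 (adjusted p = 0.00317).

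The angiomotins, scaffolds that hold YAP in the cytoplasm, diverged in Runx3 cells. Amotl1 was 6.73 and 6.72 in Runx3 cells, against 7.35 and 7.26 in vector cells, a change of −0.58 (SE 0.104, adjusted p = 0.00265). Amotl2 was 9.57 and 9.73 in Runx3 cells, against 9.01 on both vector arrays, a change of 0.63 (SE 0.114, adjusted p = 0.00281). Both calls held with any 1 array left out, and a second Amotl1 probe set changed by −0.58 (adjusted p = 0.0169). Relative to Runx1 cells, Amotl1 was lower in Runx3 cells by −0.42 (adjusted p = 0.0282), lost with any 1 array left out (adjusted p = 0.106 to 0.14). Amotl2 was higher by 0.58 (adjusted p = 0.00757), lost without Runx1 replicate 1 or Runx3 replicate 2 (adjusted p up to 0.0831).

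Ajuba, a LIM protein that restrains the kinases LATS1 and LATS2, was 7.94 and 7.89 in Runx3 cells, against 7.43 and 7.41 in vector cells, with no overlap. The change was 0.49 (SE 0.104, adjusted p = 0.00848), lost without either vector array or without Runx3 replicate 1 (adjusted p up to 0.0656). In Runx1 cells it was 7.80 and 7.78, not called. The factors themselves showed no call in any stable line: Yap1 ran between −0.09 and 0.17 over the 12 comparisons, Srf between −0.14 and 0.34, Tead1 between −0.26 and 0.52 and Lats2 between −0.38 and 0.31, with none of these 4 called anywhere. RNA of YAP and SRF says nothing about where the proteins are in the cell.

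**Figure D5:**
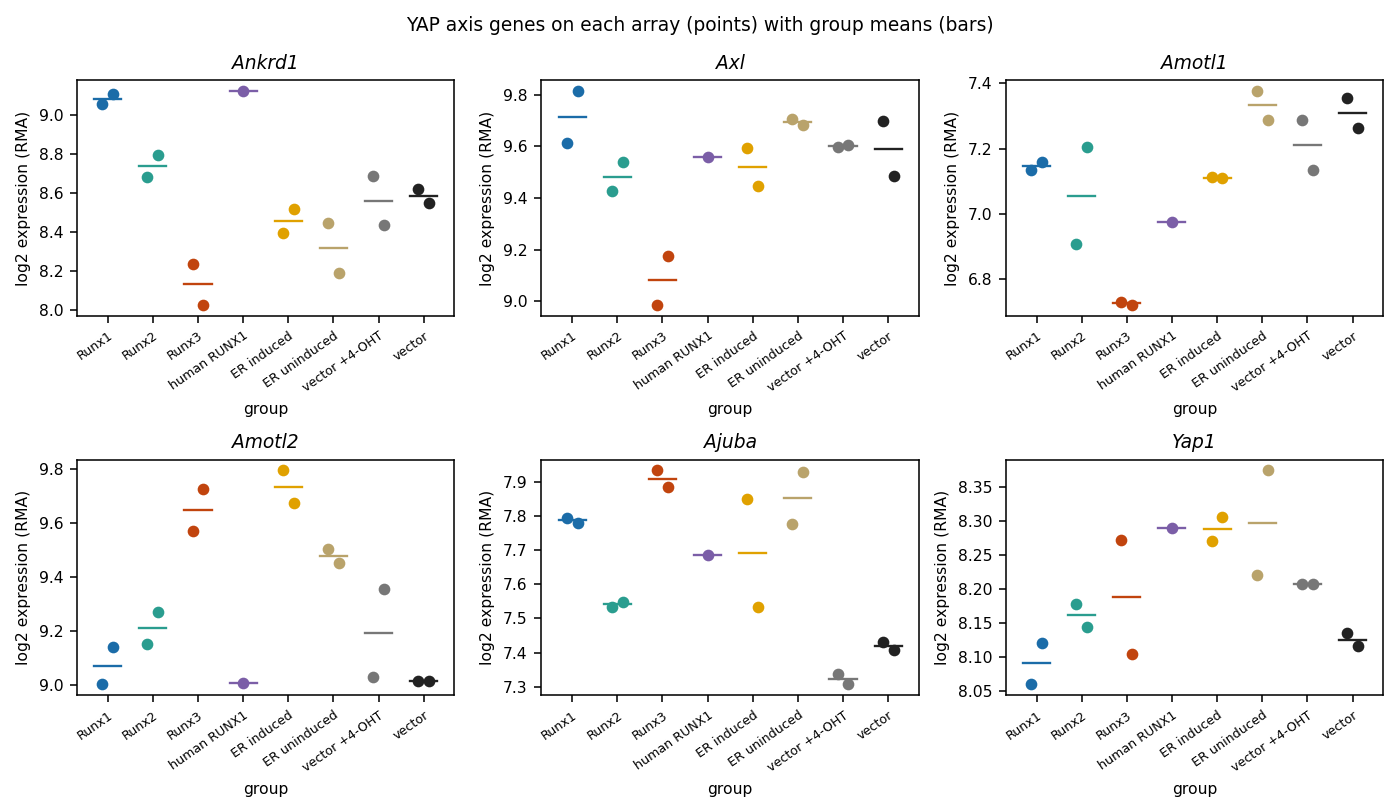
Each panel gives the log2 expression of 1 gene on every array (points) with the group mean (bar), for 8 groups on the horizontal axis and with a vertical axis that does not start at 0. Ankrd1, Axl and Amotl1 are lowest in Runx3 cells, Amotl2 is high in Runx3 and RUNX1-ER cells, and Yap1 spans a narrow range.

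Induction of RUNX1-ER raised Tpm1, Tagln2 and Ablim1 and lowered Add3 and Afap1. Tagln2, transgelin 2, which stabilises actin filaments in many cell types, had 9.57 and 9.52 in induced cells, against 9.12 and 9.10 in uninduced cells, a change of 0.44 (SE 0.0928, adjusted p = 0.0322). Ablim1 had 7.52 and 7.18 in induced cells, against 6.62 and 6.83 in uninduced cells, a change of 0.62 (SE 0.144, adjusted p = 0.0479). Induced arrays were above both uninduced arrays for both genes. Each call was lost with any 1 of the 4 arrays left out (adjusted p = 0.0899 to 0.21 for Tagln2 and 0.0566 to 0.36 for Ablim1).

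Vector cells given 4-OHT had no called member, and limma called 0% of all genes. At an unadjusted p under 0.05 stood 6.73% of all genes and 2 members (5.26%), Myl9 with −0.40 and Tead2 with −0.24. Uninduced RUNX1-ER cells, set against vector cells, also had no called member, while 0.044% of all genes were called (0.033% higher, 0.011% lower) and 10 members (26.3%) were under an unadjusted p of 0.05, against 7.95% of all genes. The largest of these were Actg2 with 0.54, Tead1 with 0.52, Amotl2 with 0.46 and Ajuba with 0.43. An intensity trend in limma's prior raised the members called to 2 in this contrast.

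Set against vector cells with 4-OHT, induced RUNX1-ER cells had 10 called members (9 higher, 1 lower), where 4.16% of all genes were called (2.9% higher, 1.26% lower). Cnn2 was 11.55 and 11.52 in induced cells, against 10.93 and 11.00 in vector cells with 4-OHT, a change of 0.57 (SE 0.092, adjusted p = 0.00357). Ablim1 (0.80), Tpm1 (0.58), Tagln2 (0.52), Acta2 (0.41) and Tead2 (0.40), a TEAD factor, were also higher, and Add3 was lower (−0.93).

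Of the 9 higher genes, 7 (all but Tpm1 and Ablim1) also had both uninduced arrays above both vector arrays with 4-OHT, and 6 (all but Tpm1, Ablim1 and Tagln2) were not called between induced and uninduced cells. Cnn2, Acta2 and Tead2 are among these 6, as are the remaining 3 genes. The 9 genes were picked as higher than the same vector arrays, which favours the count of 7. How many of all genes have uninduced arrays so placed was not counted. Actg2 had 6.26 and 6.30 in induced cells and 6.43 and 6.32 in uninduced cells, against 5.69 and 5.83 in vector cells with 4-OHT, a change of 0.52 (adjusted p = 0.0368) for the induced cells. Myl9 had 5.89 and 5.69 in induced cells and 5.84 and 5.89 in uninduced cells, against 5.15 and 5.01 (0.71, adjusted p = 0.02). Amotl2 had 9.79 and 9.67 in induced cells and 9.50 and 9.45 in uninduced cells, against 9.03 and 9.36 (0.54, adjusted p = 0.0177). Vector cells without 4-OHT were above both arrays with 4-OHT in Myl9 (5.57 and 5.39) and Tead2 (7.49 and 7.39, against 7.26 and 7.14). In Amotl2 they were below them, at 9.01 on both arrays, and in Cnn2, Acta2 and Actg2 the arrays overlapped.

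The count of 10 fell to 3 without induced replicate 1 and to 6 without any 1 of the other 3 arrays. The calls of Cnn2, Tpm1 and Add3 held whichever array was left out, that of Ablim1 was lost without induced replicate 1 (adjusted p = 0.0987), and that of Tagln2 without that array or vector with 4-OHT replicate 2 (adjusted p up to 0.0685). Acta2, Myl9 and Amotl2 lost the call without either induced array and without 1 of the vector arrays with 4-OHT, replicate 1 for Acta2 and Amotl2 and replicate 2 for Myl9 (adjusted p up to 0.176). Actg2 and Tead2 lost it with any array left out (adjusted p = 0.0857 to 0.176 and 0.057 to 0.237).

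Between the mouse lines, 4 members differed between Runx2 and Runx1 cells (1 higher, 3 lower in Runx2), where 1.5% of all genes were called (0.511% higher, 0.989% lower). Runx3 and Runx1 cells differed in 11 members (3 higher, 8 lower in Runx3), where 6.52% of all genes were called (2.39% higher, 4.13% lower), and Runx3 and Runx2 cells in 6 (3 and 3), where 3.76% were (1.85% higher, 1.91% lower). With 1 array left out these counts ran from 1 to 2, from 6 to 7 and from 3 to 4. Tmsb4x was called in all 3 contrasts, and Tpm1, Add3 and Ankrd1 in both contrasts of Runx3 cells.

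Lists of related genes that are not members held calls in both directions in Runx3 cells. Of 21 measured SRF cofactors and MRTF target genes 1 was higher and 3 were lower, of 21 Hippo pathway genes 1 and 3, and of 16 further YAP and TEAD target genes 1 and 7. Of 22 focal adhesion and stress fibre genes 3 were higher and 2 were lower, and of 17 genes of actin nucleation and turnover 0 and 5. Beside these, 3.97% of all genes were higher and 5.4% were lower. With 1 array left out the lower counts ran from 2 to 3 for the SRF list, from 0 to 2 for the Hippo list and from 3 to 4 for the YAP targets. They ran from 0 to 2 for the adhesion list and were 4 for the turnover list.

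Fhl2, a LIM cofactor of SRF, had means of 6.23 in Runx3 cells and 7.36 in vector cells, a change of −1.14 (adjusted p = 2.86e-05). Wwtr1, which encodes the YAP relative TAZ, had 8.61 in Runx3 cells and 8.02 in vector cells (0.59, adjusted p = 0.00262). F3, tissue factor, was the gene of the further YAP target list that rose (0.84, adjusted p = 0.00351). Crim1 (−0.86, adjusted p = 0.00102) and Ccdc80 (−0.72, adjusted p = 0.000459) of that list fell. Gsn, gelsolin, which severs filaments, fell by 0.99 (adjusted p = 5.48e-05), and Pfn2, a second profilin, by 0.78 (adjusted p = 0.000169). Enah, which speeds filament growth at adhesions, rose by 0.91 (adjusted p = 1.81e-05). All of these calls held with any 1 array left out.

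In other groups these lists held few calls. In Runx1 cells the 5 lists in that order had 0 and 0, 0 and 0, 1 and 1, 1 and 0, and 0 and 0 genes higher and lower, and in Runx2 cells 0 and 1, 0 and 0, 1 and 2, 2 and 0, and 1 and 3. On induction of RUNX1-ER they had none in the first 3 lists, then 2 and 0, and 0 and 2. Beside these, 0.973% of all genes were higher and 0.726% lower in Runx1 cells, 0.923% and 1.65% in Runx2 cells, and 1.01% and 0.912% on induction. With 1 array left out, the Runx2 counts of the turnover list were 0 and 0, those of the YAP targets ran from 0 to 2 both ways, and the lower count of the SRF list from 0 to 1. In Runx1 cells the YAP targets had 0 higher and from 0 to 1 lower, and the adhesion list from 0 to 1 higher. On induction the adhesion list had from 1 to 2 higher and the turnover list from 0 to 1 lower. In the lists without a call, limma's unadjusted p was under 0.05 for 4, 3 and 1 genes in Runx1 cells, 3 in Runx2 cells and 6, 4 and 4 on induction. Of all genes, 9.73% were under it in Runx1 cells, 12.5% in Runx2 cells and 11.5% on induction.

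Itgb5, the integrin beta-5 subunit, was higher in all 4 of these comparisons. Its changes were 0.71 (adjusted p = 0.00654) in Runx1 cells, 0.84 (adjusted p = 0.00146) in Runx2 cells, 1.41 (adjusted p = 5.35e-06) in Runx3 cells and 0.91 (adjusted p = 0.00121) on induction. In Runx1 cells the call was lost without either vector array or without Runx1 replicate 2 (adjusted p up to 0.101).

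Markers of epithelium or of fibroblasts were called in each of the 4 constitutive lines and on induction. Krt8, an epithelial keratin, had a mean of 6.72 in Runx3 cells, against 4.00 in vector cells, a change of 2.72 (adjusted p = 1.67e-06). Cdh1, E-cadherin, had 4.21, against 2.87 (1.35, adjusted p = 5.13e-05), while Krt18 and Epcam were not called. The mean of the 4 epithelial markers was 4.90 in Runx3 cells, against 3.85 in vector cells, and that of the 9 fibroblast markers 11.2, against 11.3. Of the 9 fibroblast markers, Pdgfra fell by 1.38, Thy1 by 1.21 and Col3a1 by 0.50, and Pdgfrb and Col1a1 rose by 0.89 and 0.85, with Col3a1 lost without vector replicate 1 (adjusted p = 0.0727). Pdgfra was also lower in Runx1 (−0.64), Runx2 (−0.55) and human RUNX1 cells (−0.50) and on induction (−0.65), each of these calls lost in at least 1 fit with an array left out (adjusted p up to 0.0514, 0.092, 0.116 and 0.065). Pdgfrb was higher in Runx1 (1.15), Runx2 (0.98, lost without vector replicate 2) and human RUNX1 cells (1.10). Krt8 was higher in Runx2 cells (0.97, lost with any 1 array left out) and human RUNX1 cells (1.61). In human RUNX1 cells Thy1 (−0.80) and Col3a1 (−0.47) were lower and Cidec, of the adipocyte list, was higher (0.53). The call of Thy1 was lost without vector replicate 1, and those of Col3a1 and Cidec without either vector array. Since these are bulk RNA values, fewer cells of a type and less RNA per cell cannot be told apart. The part of these markers in the changes of the contractile and actin genes was not tested.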

How the data were processed

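Expression was measured on 15 Affymetrix arrays. Per the labels' protocols, the authors read them with GCOS and normalized them by RMA in the Bioconductor module affy, with versions not given in the sources used here. The range of the deposited values is that of log2 units. RMA shrinks differences between dim probe sets. It gives the probe intensities of all arrays 1 distribution before they are combined into probe set values, which hides a change in total RNA. The number of arrays limits the precision.

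Of 45101 probe sets, 64 were controls. GEO's platform annotation gave 1 symbol to 34945, several to 932 and no symbol to 9160. Each of 18193 genes was read from its brightest probe set by mean over the 15 arrays. limma 3.58.1 (R 4.3.3) fitted 1 coefficient per group over all 15 arrays, with 7 residual and 5.65 prior degrees of freedom, and two-sided p-values were adjusted by Benjamini-Hochberg over genes within each of 12 comparisons (threshold 0.05). For the single human RUNX1 array the spread of the other groups was assumed. The steps were tested on simulated data.

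All 38 members are accounted for, and those past the threshold in any comparison are given array by array. From each list of related genes, up to 3 past the threshold with the largest change could be named. Members and lists were chosen with earlier results of these data known. The result of 1 list is not reported here. Promoter windows and coordinates are from RefSeq (GRCm38.p6). Alternatives changed the probe set rule, a filter on dim genes (mean above 5), limma's prior, the normalization, the replicate block, the samples in the fit, the control and each replicate. Whether equal replicate numbers pair the arrays is not given in the labels and was not tested. Over 21 pairs of groups the correlation of the replicate differences ran from −0.158 to 0.254, with a median of −0.0016, and 5 exceeded 0.1.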

Additional observations from a re-analysis of the deposited data

Results flagged for a closer look

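Direct contrasts between lines, or between inductions, found 22 differences in members. Add3 changed on induction of RUNX1-ER by −0.90 log2 units (adjusted p = 0.00814) beyond its change with 4-OHT in vector cells.

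Between Runx2 and Runx1 cells the changes against vector differed by 0.68 in Ablim1, −0.62 in Tagln, −0.86 in Tmsb4x and −0.36 in Tpm4, with limma's adjusted p from 0.000248 for Tmsb4x to 0.0414 for Tpm4.

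Between Runx3 and Runx1 cells they differed by 0.64 in Ablim1, −0.65 in Add3, −0.42 in Amotl1, 0.58 in Amotl2, −0.95 in Ankrd1 and −0.63 in Axl. They also differed by −1.57 in Tmsb4x, 0.65 in Tpm1, −0.36 in Tpm2, −0.60 in Tpm4 and −0.39 in Vcl, with adjusted p from 2.99e-07 for Tmsb4x to 0.036 for Vcl.

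Between Runx3 and Runx2 cells they differed by 0.35 in Acta2, −0.41 in Add3, −0.61 in Ankrd1, 0.66 in Tagln, −0.71 in Tmsb4x and 0.86 in Tpm1, with adjusted p from 9.99e-05 for Tpm1 to 0.0456 for Acta2. The contrasts of the 3 lines share arrays and are not independent of each other.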

How the results depend on the processing

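Over the 64 calls of members, an intensity trend in limma's prior kept all 64, a filter on dim genes 64, a second quantile normalization 61, the replicate block 56, the mean of a gene's probe sets 46 and a fit of only the groups compared 25. With vector arrays with 4-OHT as control 25 of 27 calls were kept, and over all left-out arrays 135 of 248. The causes of these losses were not tested. The fit of only the groups compared also has fewer arrays, and the part of that in its losses was not tested either. Whether replicate numbers pair the arrays was not tested, and the replicate block left 3 members called on induction, against 5 without it.

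Called members moved by over 1.5 times as follows. Reading the mean of probe sets gave 3 in human RUNX1 cells, 3 on induction and 7 between Runx3 and Runx1 cells. The filter gave 4 in Runx2 cells, 3 for induction beyond 4-OHT and 11 between Runx3 and Runx2 cells. The trend gave 6 in Runx2 cells, 8 on induction, 6 beyond 4-OHT, 2 in uninduced cells, 7 between Runx2 and Runx1 cells and 11 between Runx3 and Runx2 cells. Fitting only the groups compared gave 2 in Runx1 cells, 1 in Runx2 cells, 0 in human RUNX1 cells, 1 on induction, 1 for induced cells against vector with 4-OHT, 0 between Runx2 and Runx1 cells and 1 between Runx3 and Runx2 cells. With vector arrays with 4-OHT as control Runx2 cells had 4.

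With 1 array left out the members called ran from 1 to 2 in Runx1 cells, stayed at 1 in Runx2 cells, and ran from 7 to 10 in Runx3 cells, were 4 in human RUNX1 cells, and ran from 1 to 3 on induction and from 0 to 1 beyond 4-OHT. They ran from 3 to 6 for induced cells against vector with 4-OHT, from 1 to 2 between Runx2 and Runx1 cells, from 6 to 7 between Runx3 and Runx1 cells and from 3 to 4 between Runx3 and Runx2 cells.

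Only other probe sets reversed a sign, in 22 of 95 cases, with limma's adjusted p from 0.104 to 0.999. Acta2 had −0.17, −0.0574 and −0.0491 in Runx1, Runx3 and human RUNX1 cells, −0.0400 and −0.0266 in induced cells against vector with 4-OHT, and −0.0324 between Runx3 and Runx2 cells. Tpm1 had −0.0119, −0.0596 and −0.11 in Runx1 cells, human RUNX1 cells and induced cells against vector with 4-OHT. Add3 had 0.10 and 0.0509 in Runx2 and Runx3 cells, 0.0499 beyond 4-OHT, 0.13 in induced cells against vector with 4-OHT and 0.20 between Runx3 and Runx1 cells. Ablim1 had −0.00219 and −0.14 on induction, −0.0324 in induced cells against vector with 4-OHT and −0.0773 between Runx2 and Runx1 cells. Afap1 had 0.23 in Runx3 cells, Tpm2 0.14 in Runx3 cells and 0.34 between Runx3 and Runx1 cells, and Amotl1 0.0449 between those lines. The 10 probe sets had means from 2.95 (Tpm1) to 6.13 (Add3), against array medians of 3.69 to 3.75, and the files give no detection call for them.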
